A study of Mus musculus with 45 samples.

Results

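The transcripts of 9 enzymes of arginine, citrulline and ornithine metabolism were followed in mouse Lgr5-expressing intestinal cells and in fetal intestinal organoids. The genes were Nags, Cps1, Otc, Ass1, Asl, Arg2, Oat, Aldh18a1 and Odc1, matched by name in the expression tables. These genes were chosen with earlier results of these data known. They are 9 of the 52636 genes listed in each table, and all 9 passed the filter on low values in every comparison (at least 1 CPM, the read count scaled to the library total, in at least 2 libraries).

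The intestinal epithelium is the main source of circulating citrulline. In mitochondria, N-acetylglutamate made by Nags activates Cps1, which makes carbamoyl phosphate, and Otc joins it to ornithine to give citrulline. Ass1 and Asl convert citrulline to arginine in the cytosol, a step that the intestine of young mammals carries out before weaning, whereas after weaning citrulline is mainly released and converted by the kidney. Arg2, the mitochondrial arginase, splits arginine into ornithine and urea. Aldh18a1 makes pyrroline-5-carboxylate from glutamate, Oat links that compound to ornithine, and Odc1 turns ornithine into putrescine, the first polyamine.

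RNA was sequenced from 15 libraries of sorted small intestinal cells and from 30 libraries of organoids. In the Lgr5-DTReGFP line a diphtheria toxin receptor and eGFP cassette is inserted at Lgr5, so a heterozygous animal (HE) has 1 intact allele and a homozygote is a knockout (KO). The eGFP+ cells came from the whole small intestine of E16.5 embryos, pooled by genotype within 2 litters (HE pools of 7 and 8 embryos, KO pools of 2 and 6), from 2 single HE embryos at E18.5, and from the duodenum and ileum of 2 HE adults aged 2 months. The conditional knockout (cKO) compared Lgr5-Cre/flox mice (n = 3) with Lgr5-Cre/+ mice (n = 2), all aged 2 months and harvested 48 h after 2 mg of tamoxifen. The Cre is expressed from the Lgr5 locus itself, both of these groups carry it, and cells of the ileum positive for eGFP and RFP were sorted. Organoids were grown from single E17.5 embryos of the DTReGFP line, 3 wild-type (WT) cultures numbered 10, 5 and 30 and 2 KO cultures numbered 7 and 2, at passage 4. Each culture was grown with mouse Rspondin 1, 2 or 3 (Rspo1, Rspo2, Rspo3), ligands of Lgr receptors that raise Wnt signalling, at 100 or 5 ng/ml.

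Depth ranged from 1275529 to 9969495 reads in sorted cells, where 1 read was worth up to 0.784 CPM, and from 18127862 to 33104684 in organoids. Lgr5 itself was 104 and 125 CPM in the E16.5 HE pools against 64.8 and 51.6 CPM in the KO pools, and it was not 0 in the KO. In the 5 libraries after tamoxifen, Lgr5 lay between 52.8 and 109 CPM, and reads outside the deleted exon count toward it in both groups. The genotype of 2 of these 5 libraries (HE replicate 1 and cKO replicate 2) is exchanged in a supplementary table, although the values of all 859 genes listed there equal those deposited. The groups below follow the sample labels, and the exchanged version is given beside the result. Epithelial markers were above 1 CPM in every library, whereas the summed level of 6 hepatocyte markers, a cell type in which the urea cycle is complete, never exceeded 10.6 CPM in sorted cells and 12.8 CPM in organoids. In bulk libraries, fewer cells of a type and less RNA per cell cannot be told apart.

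On GRCm38, Nags lies on chromosome 11 (102145513 to 102149477), Cps1 on chromosome 1 (67123026 to 67231259), Otc on X (10252305 to 10321024), Ass1 on chromosome 2 (31470207 to 31520672) and Asl on chromosome 5 (130011258 to 130029247). Arg2 lies on chromosome 12 (79130777 to 79156301), as does Odc1 (17544794 to 17551505), with Oat on chromosome 7 (132557478 to 132576398) and Aldh18a1 on chromosome 19 (40550257 to 40588463). Exons of Arg2 share 285 bp with Vti1b and 116 bp with Gm48780, and exons of Nags share 443 bp with Gm11586, in each case on the opposite strand. Whether the counting used strand was not given in the sources used here, so reads in these stretches cannot be assigned with certainty.

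Nags and Otc, which both fell with Rspondin dose (below), are shown with the 250 bases before their start sites (RefSeq, GRCm38.p6, plus strand). The Nags stretch is chr11:102145263-102145512, and capitals mark a TCF/LEF motif at position -204 from the start. The Otc stretch is chrX:10252055-10252304 and held none of the 5 motifs searched.
Nags: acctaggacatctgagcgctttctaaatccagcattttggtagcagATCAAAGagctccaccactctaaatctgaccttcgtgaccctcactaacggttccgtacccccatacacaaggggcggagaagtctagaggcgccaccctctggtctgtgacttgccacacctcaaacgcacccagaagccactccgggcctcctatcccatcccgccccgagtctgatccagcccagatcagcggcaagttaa
Otc: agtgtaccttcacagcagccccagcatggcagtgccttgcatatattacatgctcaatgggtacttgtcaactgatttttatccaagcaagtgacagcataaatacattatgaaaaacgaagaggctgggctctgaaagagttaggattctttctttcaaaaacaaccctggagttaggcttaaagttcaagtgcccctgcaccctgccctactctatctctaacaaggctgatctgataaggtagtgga
Both strands of the 6 members with a listed promoter were searched for TCF/LEF (CTTTGAT or CTTTGTT, the letters of factors that act in Wnt signalling), HNF4 (CAAAGTCCA), the E-box (CACGTG), C/EBP (TTGCNNAA) and CRE (TGACGTCA). These motifs occurred in 9.3%, 0.5%, 7.2%, 10.8% and 1.8% of 32851 promoters. Besides the Nags match, Ass1 and Aldh18a1 each held an E-box, at positions -36 and -59. Arg2, Asl and Cps1 were not searched. A match describes the letters only.

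Cps1 and Oat had the highest median levels of these transcripts per kb of exon in both tables. In sorted cells the medians over 15 libraries were 535 CPM per kb for Cps1 and 376 CPM per kb for Oat, followed by Odc1 (54.5), Aldh18a1 (49.6) and Otc (27.6). Ass1 (9.55), Asl (5.06), Nags (4.03) and Arg2 (3.54) came last, and the ranges of these 4 genes over libraries overlapped. In organoids Oat (318 CPM per kb) and Cps1 (284) again led, with overlapping ranges. Arg2 was at 52.0 CPM per kb and Nags at 30.8 in organoids, while Ass1 had the lowest median, 3.18 CPM per kb. The tables were normalised separately and no test was made between them.

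**Figure D1:**
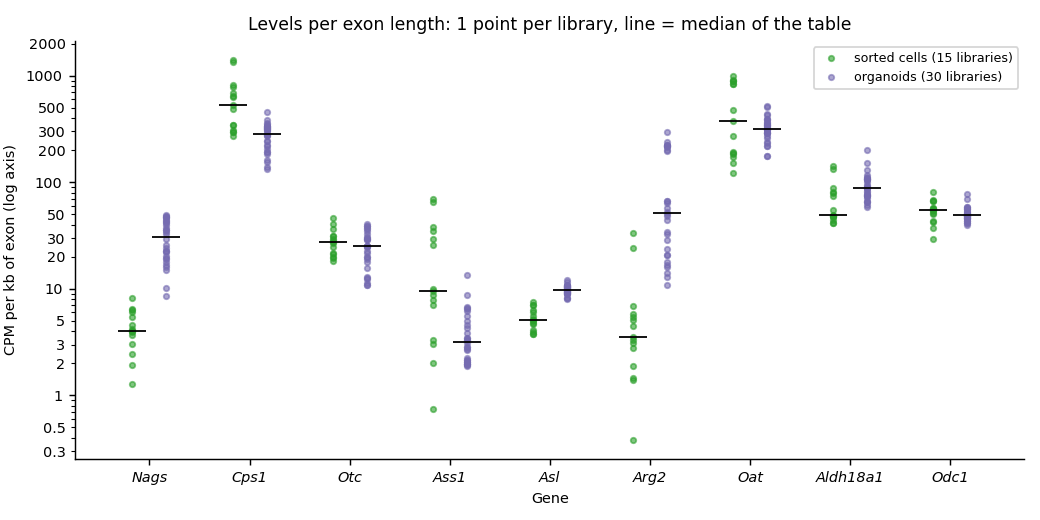
CPM per kb of exon (log axis) of the 9 genes, 1 point per library, green for 15 sorted-cell libraries and purple for 30 organoid libraries, with a line at the median. Cps1 and Oat have the highest medians in both tables, and Arg2 spans 0.385 to 33.8 CPM per kb in sorted cells and 10.9 to 297 in organoids.

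Stage was compared first among the HE cells. From E16.5 to E18.5, 4 of the 9 genes rose and none passed the test downward (limma on log2(CPM + 1), FDR of 0.1 and a fold change above 1.5). Of all 18408 genes tested 49.6% were called, and 30.3% were called higher, so a share of 4 of 9 is near what the whole table gave. The median log2 change of the 9 genes was 0.39, against 0.23 over all genes.

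Cps1, the carbamoyl phosphate synthase of mitochondria, was 3560 and 3503 CPM in the E16.5 HE pools and 7863 and 7487 CPM in the E18.5 embryos. Both embryos lay above both pools, a log2 change of 1.12 (SE 0.11, adjusted p = 0.000856). Ass1, which joins citrulline to aspartate, was 91.7 and 70.7 CPM at E16.5 and 157 and 167 CPM at E18.5, again without overlap (log2 change 1.00, SE 0.15, adjusted p = 0.00319). Aldh18a1 was 333 and 326 CPM at E16.5 and 574 and 536 CPM at E18.5 (0.75, SE 0.09, adjusted p = 0.00176). Nags was 11.8 and 8.60 CPM at E16.5 and 18.0 and 18.2 CPM at E18.5 (0.78, SE 0.25, adjusted p = 0.042), but its call was lost without either E18.5 embryo (adjusted p = 0.24 and 0.25) and, under the fold limit at 0.58, without E16.5 HE pool 2.

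The remaining 5 genes were not called. Asl, the next enzyme after Ass1, was 33.8 CPM in both E16.5 pools and 24.5 and 22.6 CPM at E18.5, a log2 difference of -0.50 (adjusted p = 0.0428) that did not reach the fold limit. Odc1 was 228 and 229 CPM at E16.5 and 170 and 186 CPM at E18.5, likewise within the fold limit (-0.36, adjusted p = 0.0262). Oat and Otc overlapped between the stages. Arg2 rested on 6 reads in E16.5 HE pool 1 and 1 read in pool 2. Without pool 1 its log2 difference was 1.34 (adjusted p = 0.00277), a value that rests on the 1 read of pool 2 with a spread taken from the 2 embryos alone. Markers of other cells moved with this step as well. The 7 mesenchyme markers, all called lower, summed to 733 to 1700 CPM at E16.5 and 64.8 to 75.3 CPM at E18.5, and the 5 stem cell markers, all called higher, to 422 to 423 CPM and 2496 to 2585 CPM. Their part in the values of the enzymes was not tested. With TMM scaling, which lowered log2 changes of this comparison by 0.13, Asl also passed the test (-0.65, adjusted p = 0.0213).

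From E18.5 to adult, Ass1, Cps1, Aldh18a1, Oat and Nags fell and none of the 9 passed the test upward. This comparison shares the E18.5 embryos with the one above. Of all 19554 genes tested 19% were called and 9.65% were called lower in the adult, against 5 of the 9 enzymes. The median log2 change of the 9 was -1.21, against -0.04 over all genes. These 4 adult libraries are 2 regions of 2 mice, so regions of a mouse are not independent. By the methods of the study, adult cells were sorted from isolated crypts and embryonic cells from the small intestine. Stage and preparation therefore cannot be told apart here.

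Ass1 showed the widest difference of the 9 genes. It was 157 and 167 CPM in the E18.5 embryos, 4.85 and 1.80 CPM in the adult duodenum and 8.05 and 7.35 CPM in the adult ileum. Every adult library lay far below both embryos, 27.4-fold lower on the log2(CPM + 1) scale (log2 change -4.78, SE 0.44, adjusted p = 0.000674). The 5 ileal libraries of the Cre mice, sorted and treated differently, held 16.9 to 23.9 CPM.

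Cps1 was 3853 and 2969 CPM in the adult duodenum and 2685 and 1647 CPM in the adult ileum, all below the embryos (log2 change -1.52, adjusted p = 0.0136). Oat was 2102 and 1990 CPM at E18.5, 1125 and 888 CPM in the duodenum and 646 and 455 CPM in the ileum (-1.47, adjusted p = 0.0212). Aldh18a1 fell from the E18.5 values above to 224 and 197 CPM in the duodenum and 182 and 197 CPM in the ileum (-1.47, adjusted p = 0.000301). These genes, which feed ornithine and carbamoyl phosphate into citrulline, did not overlap between stages. Nor did any other member except Otc, whether called or not. The share of all genes without overlap was not counted. Nags was 11.5 and 11.3 CPM in the duodenum and 3.65 and 5.50 CPM in the ileum (-1.21, adjusted p = 0.0917), and its call was lost with a pseudocount of 0.1, a wider filter, TMM scaling, or without ileum replicate 2 (adjusted p = 0.149). Without either E18.5 embryo, 2 of the 5 calls were left, those of Ass1 and Aldh18a1 (Cps1 then had adjusted p = 0.146 and 0.134, Oat 0.182 and 0.168, and Nags 0.347 and 0.363).

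Arg2 was higher in the adult duodenum than at E18.5. It was 2.10 and 3.95 CPM at E18.5, 34.3 and 48.3 CPM in the adult duodenum and 4.40 and 6.45 CPM in the adult ileum. Over both regions it was not called (log2 difference 2.05, adjusted p = 0.164). Against the duodenum alone it was (3.41, adjusted p = 5.35e-05), as it was on the mean of the 2 regions of each mouse (2.62, adjusted p = 0.000227) and without the ileum of adult replicate 1 (2.58, adjusted p = 0.0626). The E18.5 libraries are not split by region, so region and stage cannot be told apart in the fit to the duodenum alone. Otc, whose product is citrulline, was 132 and 122 CPM at E18.5 and 125 to 198 CPM in the adult and was not called, nor were Asl and Odc1, although Odc1 was lower in the duodenum alone (-0.65, adjusted p = 0.00668).

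Markers of other cells moved with stage. The summed level of 5 Paneth cell markers was 141 to 148 CPM at E18.5 and 10784 to 26991 CPM in the adult, and that of 8 enterocyte markers was 1582 to 1900 CPM at E18.5 and 252 to 885 CPM in the adult. Their part in the changes of these enzymes was not tested.

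**Figure D2:**
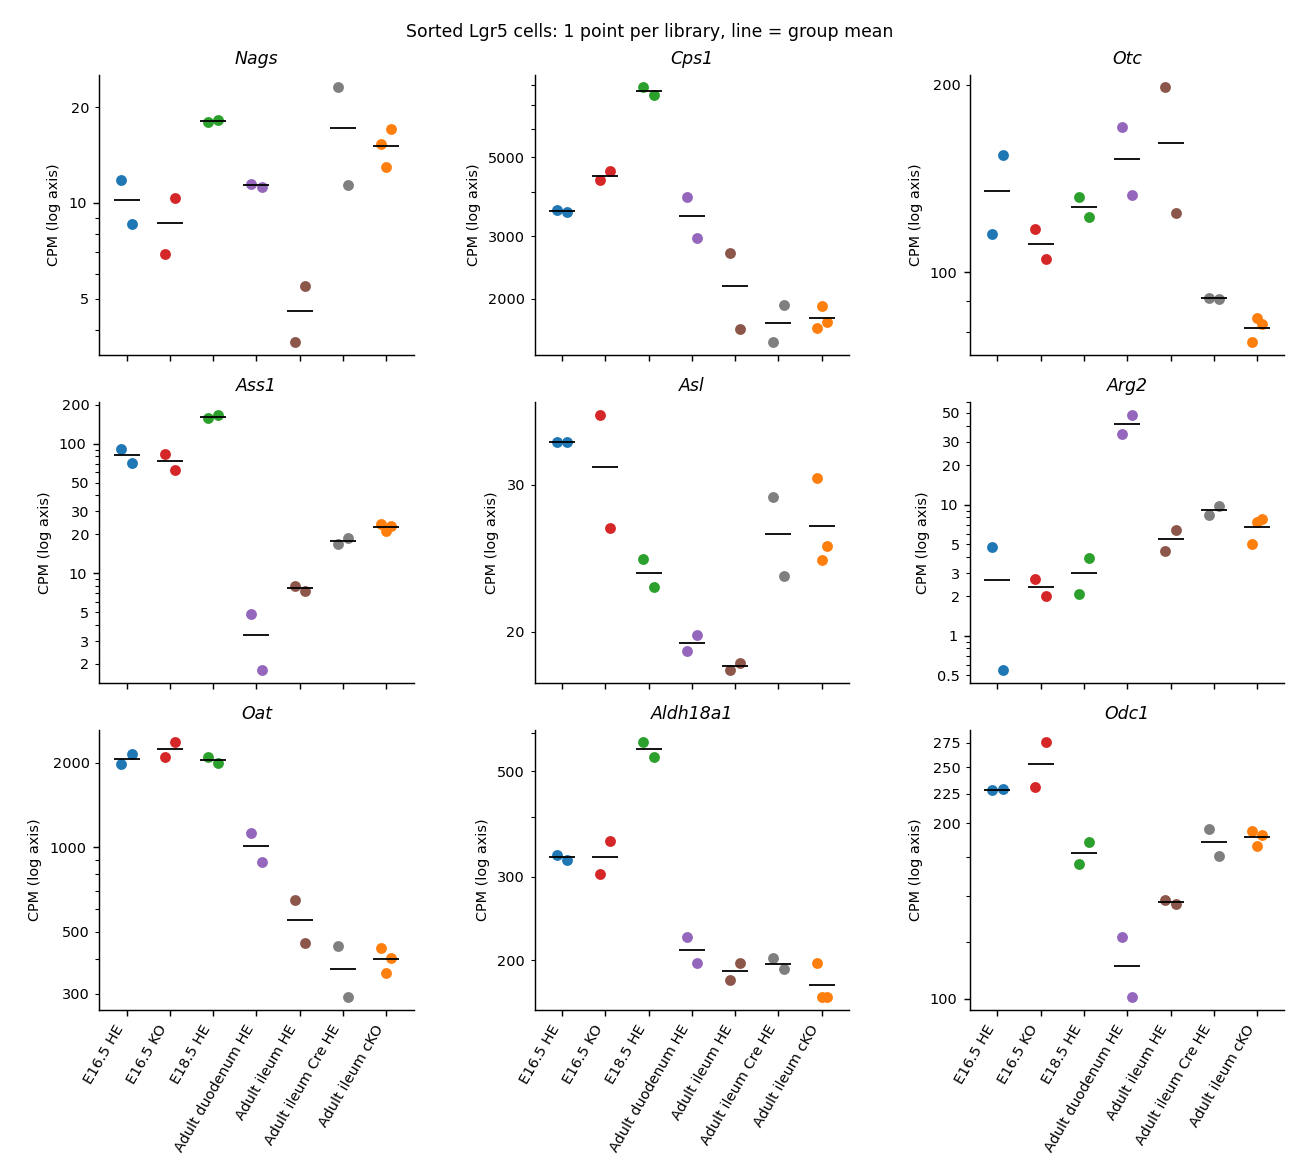
CPM (log axis) of the 9 genes in the 7 groups of sorted cells, 1 point per library, with a line at the group mean. Ass1 falls from 157 and 167 CPM at E18.5 to at most 8.05 CPM in the adult HE mice, and Arg2 is high in the adult duodenum alone, at 34.3 and 48.3 CPM.

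Between the regions of the adult intestine, 3 of the 9 genes were lower in the ileum than in the duodenum and none passed the test upward, against 6.88% of 18608 genes called and 4.64% called lower. The Arg2 values above did not overlap, a 6.57-fold lower level in the ileum (log2 change -2.72, adjusted p = 0.00429), and Arg2 was called under every alternative tried. Nags (-1.17, adjusted p = 0.0729) and Oat (-0.88, adjusted p = 0.0857) were also lower, although both calls were lost with a wider filter. That of Nags was also lost without ileum replicate 1 (adjusted p = 0.18) or either duodenum library (0.196 and 0.234), and that of Oat without ileum replicate 2 (0.244) or duodenum replicate 1 (0.258). The median log2 change of the 9 was -0.15, against 0.03 over all genes.

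Each mouse gave both regions. With the mouse as a block, 5 of the 9 genes were called, because Cps1 (log2 change -0.69, adjusted p = 0.0219) and Ass1 (1.10, adjusted p = 0.0753) also passed. The share of all genes called with this block was not counted, so 5 of 9 has no background beside it. Ass1 was the single member called higher in the ileum by that fit, 8.05 and 7.35 CPM against 4.85 and 1.80 CPM. Without duodenum replicate 1, which leaves 1 duodenum library assumed to vary like the ileum pair, Ass1 had a log2 difference of 1.63 (adjusted p = 0.0392). Otc, Asl, Aldh18a1 and Odc1 were not called by either fit. Immune markers summed to 1053 to 1355 CPM in the ileum and 245 to 334 CPM in the duodenum. The 8 enterocyte markers summed to 252 to 304 CPM in the ileum and 734 to 885 CPM in the duodenum, and all 8 were called lower (median log2 change -2.43). The part of these cells in the differences was not tested.

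The genes that overlap Arg2 were checked in the same libraries. Gm48780 was 10.2 and 13.7 CPM in the adult duodenum and at most 3.15 CPM in every other group of sorted cells. Vti1b, a SNARE protein gene, was 33.4 and 41.5 CPM in the duodenum and 20.9 and 21.3 CPM in the ileum. Both were thus higher in the duodenum than in the ileum, as Arg2 was. In the ileum of the Cre mice, Vti1b was at 66.5 to 83.3 CPM in HE and 71.2 to 75.8 CPM in cKO, above its level in the duodenum, while Arg2 was at 5.05 to 9.75 CPM. The part of shared reads was not tested.

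Loss of Lgr5 was compared at E16.5, between pools from the same litters without the litter in the fit, and in the adult ileum. None of the 9 genes was called in E16.5 KO against HE (limma, 0 at an unadjusted p under 0.05), where 0.527% of 17276 genes were called. At the same FDR and fold limits, edgeR on reads recovered from the CPM steps called 0 of 8 members and 369 of 12453 genes. Ass1 was 91.7 and 70.7 CPM in the HE pools and 83.5 and 62.4 CPM in the KO pools, with overlap. Cps1 was 3560 and 3503 CPM in HE and 4316 and 4566 CPM in KO, without overlap, a log2 difference of 0.33 with a 95% interval of -0.01 to 0.67. Arg2 was 4.75 and 0.55 CPM in HE and 2.70 and 2.00 CPM in KO, from at most 7 reads, and a difference in it was not detectable at this depth. The 9 enzymes had a median log2 difference of 0.00. The mesenchymal markers summed to 733 to 1700 CPM in the HE pools and 167 to 455 CPM in the KO pools. Enterocyte markers were also lower in KO, 1632 to 2133 CPM in HE and 765 to 897 CPM in KO. Higher in KO were epithelial markers (2460 to 2586 and 2896 to 3081 CPM), stem cell markers (422 to 423 and 554 to 558 CPM) and Paneth markers (78.3 to 91.0 and 135 to 244 CPM). The part of these cells in the values of the enzymes was not tested.

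Likewise none of the 9 was called between cKO and HE after tamoxifen (limma, 0 at an unadjusted p under 0.05), where 0.0504% of 19848 genes were called. Ass1 was 16.9 and 18.9 CPM in HE and 23.9, 21.2 and 23.1 CPM in cKO, without overlap but within the error of the fit. Cps1 was 1508 and 1916 CPM in HE and 1657, 1908 and 1717 CPM in cKO, and Otc 91.0 and 90.5 CPM in HE and 77.1, 84.4 and 82.7 CPM in cKO. With these 2 genotypes exchanged, 3.92% of genes were called and still none of the 9, the nearest being Oat (log2 difference 0.41, adjusted p = 0.113).

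**Figure D3:**
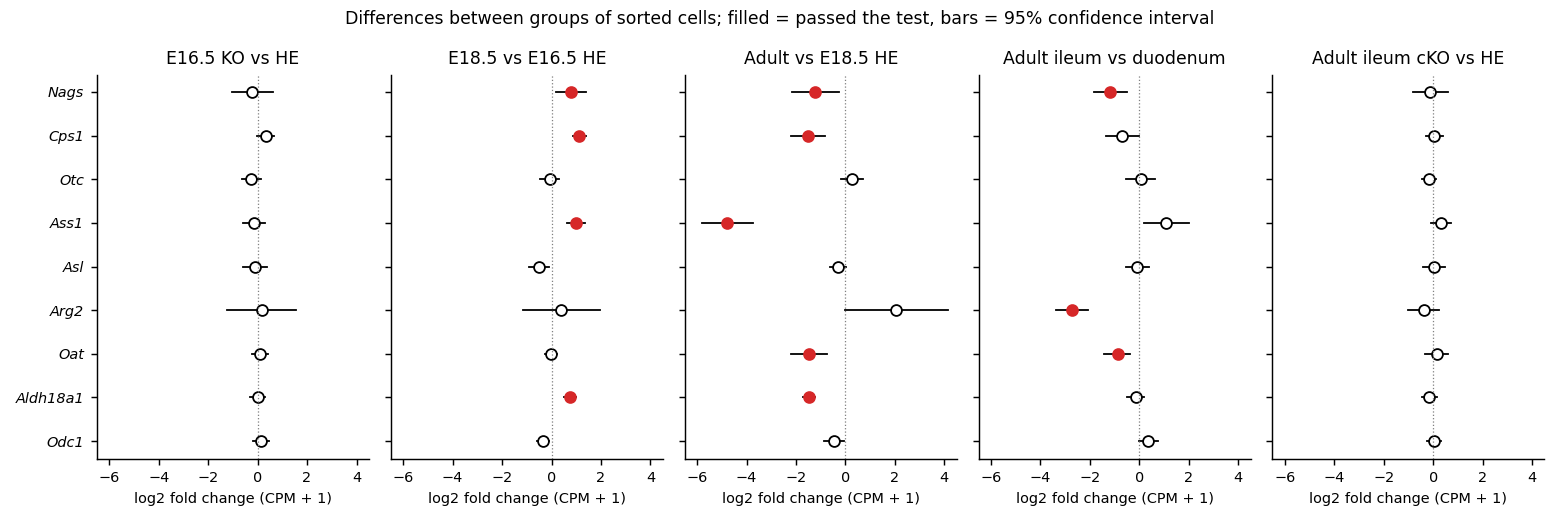
Log2 fold change of each gene on the log2(CPM + 1) scale in the 5 comparisons of sorted cells, with bars for the 95% confidence interval. Filled points passed the test: 4 at E18.5 against E16.5, 5 in adult against E18.5, 3 in ileum against duodenum and 0 in both comparisons of Lgr5 genotype.

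Other genes of the pathway were counted from lists. Among 6 measured transporters of cationic amino acids, 4 fell and 1 rose from E18.5 to adult, the largest falls being those of Slc7a9 (-2.14) and Slc7a7 (-1.97), which together with their partner chains carry arginine across the 2 faces of the epithelial cell. Of 7 other genes that use arginine, 4 fell, led by Gamt (-2.05) and Ddah1 (-1.97), of creatine synthesis and methylarginine breakdown. Slc25a15, the mitochondrial ornithine carrier, fell with Cps1 (-1.25), 1 of 2 falls among 7 carriers and helpers, and 0 of 10 polyamine genes were called in either direction (limma, 2 at an unadjusted p under 0.05). Of 13 genes of glutamine, glutamate and proline, 4 fell and 1 rose (Glul, 1.12). Median log2 changes were -1.49 for transport, -1.67 for other uses of arginine, 0.24 for the carriers, -0.03 for glutamine and proline and -0.25 for polyamines, against -0.04 over all genes. Of all genes 19% were called in this comparison and 9.65% were called lower.

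In the organoids, the dose of Rspondin was compared within each ligand and genotype. Arg2, Nags and Otc were lower at 100 than at 5 ng/ml in all 15 pairs of libraries from the same culture and ligand, and Ass1 was lower in 14 of 15. These 15 pairs come from 5 cultures, each counted once per ligand. The share of all genes lower in every pair was not counted. Over the 3 ligands, 14 of 27 gene tests passed in WT cultures, 12 of them lower at 100 ng/ml, and 7 of 27 in KO cultures, all lower (limma, FDR of 0.05). In WT cultures, with Rspo1 53.4% of 19130 genes were called (12.5% lower) and 4 of the 9 (4 lower). With Rspo2 33.4% of genes were called (9.12% lower) and 5 of the 9 (5 lower), and with Rspo3 51.4% (13.7% lower) and 5 of the 9 (3 lower). In KO cultures, with Rspo1 29.8% of genes were called (7.86% lower) and 3 of the 9 (3 lower), and with Rspo3 44.5% (11.8% lower) and 4 of the 9 (4 lower). With Rspo2 in KO 0.115% of genes were called and 0 of the 9 (0 at an unadjusted p under 0.05). The number of members called is thus near the background, but the direction is not that of most genes. With Rspo1 in WT, 76.6% of called genes were higher at 100 ng/ml, as were 72.7% with Rspo2 and 73.4% with Rspo3, while the calls among the members were mostly lower. TMM scaling lowered log2 changes of WT by 0.30, 0.17 and 0.26 and of KO by 0.20, 0.06 and 0.27 for Rspo1, Rspo2 and Rspo3, which brought the share of called genes that were higher to 50.4%, 49.2% and 51.9% in WT and, from 73.6% each, to 49.6% with Rspo1 and 52% with Rspo3 in KO.

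Arg2 had the largest dose difference. In WT with Rspo1 it was 283, 319 and 320 CPM at 5 ng/ml and 29.7, 48.5 and 23.8 CPM at 100 ng/ml (cultures 10, 5 and 30). With Rspo3 it was 290, 313 and 342 CPM at 5 ng/ml and 46.3, 68.7 and 40.9 CPM at 100 ng/ml. With Rspo2 it was 75.8, 90.4 and 63.7 CPM at 5 ng/ml and 25.6, 23.0 and 15.6 CPM at 100 ng/ml. The doses did not overlap with any ligand, and the level with Rspo2 at 5 ng/ml stood well below that with the other 2 ligands.

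The log2 change of Arg2 was -3.20 with Rspo1, 9.18-fold lower at 100 ng/ml (SE 0.48, adjusted p = 1.34e-05), -2.61 with Rspo3 (SE 0.48, adjusted p = 0.000103) and -1.81 with Rspo2 (SE 0.48, adjusted p = 0.00713). The call with Rspo2 was lost without any 1 of the 3 WT cultures (adjusted p = 0.0593 to 0.104). In the KO cultures 7 and 2, Arg2 was 310 and 307 CPM with Rspo1 at 5 ng/ml and 20.3 and 95.3 CPM at 100 ng/ml (log2 change -2.78, adjusted p = 0.0015). With Rspo3 it was 313 and 424 CPM against 29.7 and 81.2 CPM (-2.86, adjusted p = 0.000443). With Rspo2 it was 34.1 and 95.9 CPM against 18.45 and 72.7 CPM (-0.62, adjusted p = 0.926), where the difference between cultures exceeded that between doses. Culture 2 was above culture 7 in each of these conditions except Rspo1 at 5 ng/ml.

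Over all organoid conditions, 44.6% of genes varied at an FDR of 0.001 alone and 0.659% by an FDR of 0.001 and a range of at least 16-fold between group means, and Arg2 was the 1 member among them (log2 range 4.06, adjusted p = 3.12e-07), close to the limit and not past it without WT culture 30. Vti1b was at a median of 134 CPM at 5 ng/ml and 56.6 CPM at 100 ng/ml, and Gm48780 had medians of 58.8 and 5.85 CPM, so the genes that share exon bases with Arg2 were higher at the dose where Arg2 was higher. The share of Arg2 reads from these stretches was not tested.

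**Figure D4:**
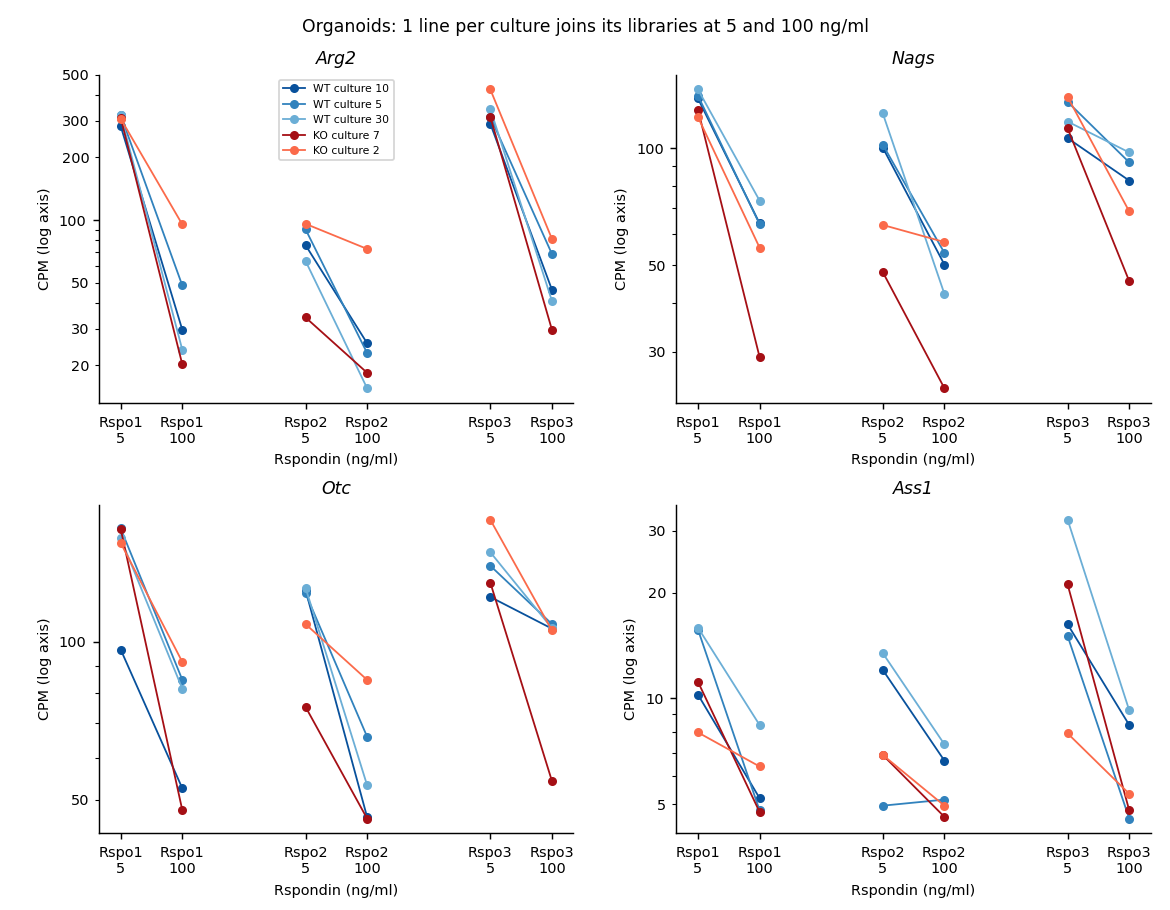
CPM (log axis) of Arg2, Nags, Otc and Ass1 in organoids at 5 and 100 ng/ml of Rspo1, Rspo2 and Rspo3, with 1 line per culture (blue for WT, red for KO). Every line falls toward 100 ng/ml except that of Ass1 in WT culture 5 with Rspo2, which goes from 4.95 to 5.15 CPM.

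Nags and Otc, of the first steps of citrulline synthesis, were also lower at 100 ng/ml. Nags in WT with Rspo1 was 134, 136 and 141 CPM at 5 ng/ml and 64.1, 63.8 and 73.3 CPM at 100 ng/ml, without overlap (log2 change -1.03, SE 0.23, adjusted p = 0.000784). With Rspo2 it was 100, 102 and 123 CPM against 50.2, 53.8 and 42.2 CPM (-1.14, adjusted p = 0.000901). With Rspo3 it was 106, 131 and 117 CPM against 82.5, 91.9 and 97.5 CPM (-0.38, adjusted p = 0.177), a difference that passed only with the culture as a block (adjusted p = 0.0446), with TMM scaling (-0.66, adjusted p = 0.0221) or without either KO culture. In KO it was called with Rspo1 (-1.59, adjusted p = 0.000383) and Rspo3 (-1.13, adjusted p = 0.00243). With Rspo2 in KO the values were 48.0 and 63.5 CPM at 5 ng/ml and 24.2 and 57.4 CPM at 100 ng/ml (-0.55, adjusted p = 0.753), and without KO culture 2 the test passed (-0.96, adjusted p = 0.0358). Gm11586, which overlaps Nags, had medians of 38.1 CPM at 5 ng/ml and 20.0 CPM at 100 ng/ml.

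Otc in WT was 96.7, 165 and 158 CPM with Rspo1 at 5 ng/ml and 52.6, 84.7 and 81.5 CPM at 100 ng/ml (log2 change -0.92, adjusted p = 0.00623). With Rspo2 it was 126, 124 and 127 CPM against 46.4, 66.0 and 53.3 CPM (-1.18, adjusted p = 0.00214), and with Rspo3 122, 140 and 148 CPM against 106, 108 and 106 CPM (-0.35, adjusted p = 0.287). In KO it fell with Rspo1 (-1.25, adjusted p = 0.00646) and Rspo3 (-0.97, adjusted p = 0.0197), but neither call was kept without KO culture 7 (adjusted p = 0.232 and 0.13). In WT, Otc lost its call with Rspo1 without culture 5 or 30 (adjusted p = 0.0543 and 0.059), and Otc and Nags lost theirs with Rspo2 without culture 30 (0.0601 and 0.0682). Slc25a15, which brings ornithine to Otc, also fell with each ligand in WT (-1.02, -1.11 and -0.60) and with Rspo1 and Rspo3 in KO (-1.32 and -1.25).

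Ass1 was low in every organoid library. In WT it was 10.3, 15.7 and 15.9 CPM with Rspo1 at 5 ng/ml and 5.20, 4.80 and 8.40 CPM at 100 ng/ml (log2 change -1.08, adjusted p = 0.0121), a call lost without culture 10 or 5 (adjusted p = 0.0502 and 0.0688). With Rspo3 it was 16.3, 15.1 and 32.3 CPM against 8.40, 4.55 and 9.25 CPM (-1.37, adjusted p = 0.00212). In KO with Rspo3 it fell from 21.1 and 7.95 CPM to 4.80 and 5.35 CPM (-1.21, adjusted p = 0.0237), which rested on culture 7 (without it -0.50, adjusted p = 0.58). Asl stayed between 39.0 and 58.7 CPM in all 30 libraries and was called only in WT with Rspo3 (-0.30, adjusted p = 0.00658), not without culture 30 (-0.17, adjusted p = 0.216). With TMM scaling it was also called in WT with Rspo1 (-0.47, adjusted p = 0.000285) and in KO with Rspo3 (-0.33, adjusted p = 0.0208).

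The genes around ornithine did not share one direction. Cps1 was 780, 1065 and 1030 CPM with Rspo3 at 5 ng/ml in WT and 1511, 1828 and 1688 CPM at 100 ng/ml, without overlap (log2 change 0.81, adjusted p = 0.0261), but it was not called with TMM scaling (0.53, adjusted p = 0.153) or without any 1 of the WT cultures (0.109 to 0.143). Aldh18a1 with Rspo3 was 240, 267 and 305 CPM against 452, 364 and 624 CPM (0.80, adjusted p = 0.00402, with TMM scaling 0.51 and adjusted p = 0.0901). With Rspo2 Aldh18a1 had the opposite order, 530, 438 and 810 CPM at 5 ng/ml and 376, 340 and 438 CPM at 100 ng/ml (-0.58, adjusted p = 0.0439), a call lost without any 1 of the WT cultures (0.0595 to 0.21) or KO culture 2 (0.0501). Odc1 was 262, 198 and 235.4 CPM with Rspo2 at 5 ng/ml and 147, 158 and 158 CPM at 100 ng/ml (-0.57, SE 0.11, adjusted p = 0.000514), whereas with Rspo1 it was 137, 164 and 166 CPM against 172, 165 and 169 CPM (0.12, adjusted p = 0.358). Oat was not called at any dose comparison without the culture block, and with it was higher at 100 ng/ml of Rspo3 in WT (0.59, adjusted p = 0.00212) and KO (0.65, adjusted p = 0.00548). Aldh18a1 was also called in KO with Rspo3 by that fit (0.51, adjusted p = 0.0143).

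**Figure D5:**
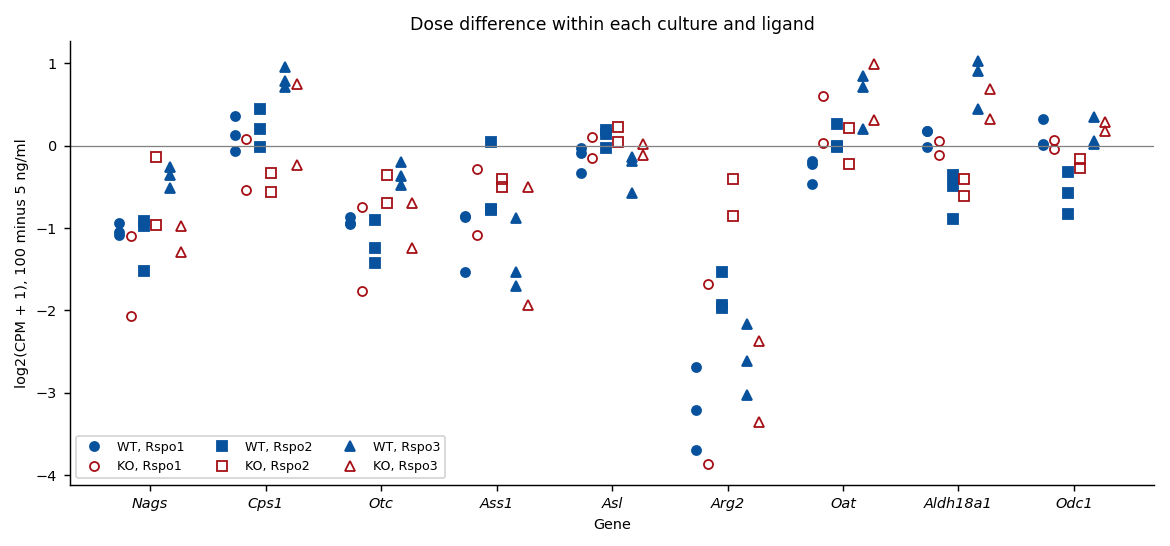
Difference of log2(CPM + 1) between 100 and 5 ng/ml within each culture, by gene, with filled blue symbols for WT, open red symbols for KO and a shape for each ligand. Arg2, Nags and Otc are below 0 in all 15 pairs, from -3.87 to -0.40 for Arg2, while Oat, Aldh18a1, Cps1, Asl and Odc1 lie on both sides of 0.

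Whether the dose effect differed between ligands was tested as an interaction, 36 tests of the 9 genes for Rspo2 and Rspo3 against Rspo1 in WT and KO. Odc1 alone was called, in WT for Rspo2 against Rspo1 (difference of log2 changes -0.69, SE 0.15, adjusted p = 0.0141), where 4.7% of all genes were called, and it was not called with TMM scaling (-0.56, adjusted p = 0.0685) or without WT culture 10 or 30. Of all genes, 0.46% were called for Rspo3 against Rspo1 in WT, 2.22% for Rspo2 against Rspo1 in KO and 0.0836% for Rspo3 against Rspo1 in KO, and 0 of the 9 (limma, 2, 2 and 0 at an unadjusted p under 0.05). The culture is shared by all conditions of an embryo, and with it as a block 7 of 36 tests passed. Arg2 was then among them for Rspo2 against Rspo1, in WT (1.39, adjusted p = 0.0249, 15.7% of all genes called by this fit) and KO (2.15, adjusted p = 0.0102, 15.4% called), as was Nags in KO (1.03, adjusted p = 0.0179).

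The 3 ligands were also compared at equal dose, 108 tests of the 9 genes, of which 18 passed and 33 with the culture as a block. The calls were mostly at 5 ng/ml and against Rspo2. Arg2 with Rspo2 was 4.01-fold lower than with Rspo1 in WT (log2 change -2.00, SE 0.48, adjusted p = 0.00558, 22.8% of genes called) and 5.31-fold lower in KO (-2.41, adjusted p = 0.00801, 17.9% of genes called). Against Rspo3, Arg2 was again lower with Rspo2 in WT (2.04 for Rspo3 over Rspo2, adjusted p = 0.00151, 44.9% of genes called) and KO (2.65, adjusted p = 0.000845, 46.7% called). Between Rspo3 and Rspo1 at 5 ng/ml Arg2 differed by 0.04 in WT, with a 95% interval from -0.97 to 1.04, and by 0.24 in KO (-0.99 to 1.47), and none of the 9 genes was called there (limma, 1 at an unadjusted p under 0.05 in each genotype), against 16.4% and 16.2% of all genes. With the culture as a block, Cps1 was lower with Rspo3 than with Rspo1 in WT (-0.62, adjusted p = 0.0116, 29.1% of all genes called by this fit). In KO, Cps1 (-0.92, adjusted p = 0.00305), Oat (-0.53, adjusted p = 0.0395) and Aldh18a1 (-0.54, adjusted p = 0.0214) were then lower, with 26.3% of all genes called. Odc1 and Aldh18a1 had the reverse order in WT, higher with Rspo2 than with Rspo1 (0.57, adjusted p = 0.00102, and 0.81, adjusted p = 0.0108). Without WT culture 10 none of these 3 differences from Rspo1 in WT was called (adjusted p = 0.0907 for Arg2, 0.0528 for Odc1 and 0.14 for Aldh18a1), nor without culture 30 those of Arg2 and Aldh18a1 (0.075 and 0.0646). Asl was lower with Rspo2 than with Rspo1 in WT (-0.31, adjusted p = 0.0165), not without culture 10 or 30 (0.154 and 0.177), and Nags was lower in KO (-1.14, adjusted p = 0.0083).

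Against Rspo2 at 5 ng/ml, Rspo3 gave more Ass1 (1.01, adjusted p = 0.0205) and Asl (0.37, adjusted p = 0.00151) in WT, the enzymes that convert citrulline to arginine, and more Nags in KO (1.15, adjusted p = 0.00194). The call of Ass1 was lost without WT culture 5 or 30 (adjusted p = 0.1 and 0.0752). Aldh18a1 was lower with Rspo3 in WT (-1.09, adjusted p = 0.000306), as were Cps1 (-0.80, adjusted p = 0.0323) and Odc1 (-0.41, adjusted p = 0.00331). In KO, Oat (-0.82, adjusted p = 0.0458) and Aldh18a1 (-0.70, adjusted p = 0.0353) were lower. TMM scaling, which raised log2 changes of this comparison by 0.21 in WT and 0.28 in KO, ended the calls of Cps1 (-0.57, adjusted p = 0.13) and Odc1 (-0.19, adjusted p = 0.214) in WT and of Oat (-0.51, adjusted p = 0.26) and Aldh18a1 (-0.40, adjusted p = 0.297) in KO. The calls of Cps1 in WT and of Oat and Aldh18a1 in KO were also lost without any 1 culture of that genotype.

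At 100 ng/ml, 2 of the 9 genes were called in WT between Rspo3 and Rspo2, Otc (0.95, adjusted p = 0.0216) and Nags (0.89, adjusted p = 0.014), both higher with Rspo3, where 12.7% of genes were called. Neither call was kept without any 1 of the WT cultures (adjusted p = 0.0739 to 0.285). None was called in WT between Rspo2 and Rspo1 (limma, 0 at an unadjusted p under 0.05) or Rspo3 and Rspo1 (1), nor in KO between any 2 ligands (0 in each), and there 0.204% and 0.00523% of all genes were called in WT, and 0.0105% in KO for Rspo2 against Rspo1 and 0% for the other pairs. With the culture as a block, Otc (0.57, adjusted p = 0.0281), Oat (0.48, adjusted p = 0.0395) and Aldh18a1 (0.41, adjusted p = 0.0489) were higher with Rspo3 than with Rspo1 in WT, with 15.2% of all genes called. Rspo2 at 5 ng/ml in WT was also the condition with intermediate Lgr5, 6.10 to 28.7 CPM, between 0.35 and 5.65 CPM for the other ligands at 5 ng/ml and 39.4 to 458 CPM at 100 ng/ml. In KO culture 2 with Rspo2, Lgr5 was 90.5 CPM at 5 ng/ml and 75.0 CPM at 100 ng/ml, the pair in which Arg2 and Nags differed least. A KO culture has no intact Lgr5 allele, so Lgr5 reads there count a disrupted transcript. The part of Lgr5 in these values was not tested.

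Genotype was compared at each ligand and dose, 54 tests of the 9 genes. A single test passed, Nags with Rspo2 at 5 ng/ml, 100, 102 and 123 CPM in WT and 48.0 and 63.5 CPM in KO (log2 change -0.95, SE 0.26, adjusted p = 0.0369), where 4.54% of all genes were called. In this condition the stem cell markers summed to 694 to 2072 CPM in KO and 146 to 540 CPM in WT (3 of 5 called higher) and the Paneth markers to 998 to 1034 CPM and 374 to 438 CPM (2 of 5), and their part was not tested. This call of Nags was lost without any 1 of the WT cultures (adjusted p = 0.0981 to 0.252) and with a wider filter, and without WT culture 5 Odc1 passed in this condition (-0.46, adjusted p = 0.0312). In the other 5 conditions none was called (limma, 0 to 1 of 9 at an unadjusted p under 0.05). There 0.214% and 0.125% of all genes were called with Rspo1 at 100 and 5 ng/ml, 1.2% with Rspo2 at 100 ng/ml, and 0.868% and 0.193% with Rspo3 at 100 and 5 ng/ml. Without KO culture 2, leaving culture 7 as the only KO, 6 tests passed, among them Nags at 100 ng/ml of each ligand (-1.18, -0.98 and -0.98 for Rspo1, Rspo2 and Rspo3), so these values describe 1 culture. Without KO culture 7, 2 tests passed, among them Arg2 with Rspo2 at 100 ng/ml, higher in KO (1.75, adjusted p = 0.0232). The dose effect itself did not differ between genotypes in any of 27 tests (limma, 0, 1 and 0 at an unadjusted p under 0.05 for Rspo1, Rspo2 and Rspo3, with 0%, 0.439% and 0% of all genes called), except for Nags with Rspo2 without KO culture 7 (0.99, adjusted p = 0.0292). The 95% intervals were wide, from -1.16 to 2.01 for Arg2 with Rspo1.

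Markers of cell types moved with dose as well. In WT the summed level of the enterocyte markers was 6337 to 12375 CPM at 5 ng/ml and 3306 to 10377 CPM at 100 ng/ml. The median of the goblet markers was 6923 and 3833 CPM, that of the stem cell markers 174 and 1390 CPM, and that of the Paneth markers 273 and 1131 CPM. The KO cultures had medians of 8236 and 5206 CPM for the enterocyte markers and 338 and 1506 CPM for the stem cell markers. The part of these cell types in the dose effect on the enzymes was not tested.

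Other pathway genes changed with dose in both directions. Pycr1, which makes proline from pyrroline-5-carboxylate, rose by 2.19 on the log2 scale with Rspo1 and 2.24 with Rspo3 in WT, and Srm, the spermidine synthase, by 1.30 and 2.21. Of 13 genes of glutamine, glutamate and proline, 8 rose and 2 fell with Rspo1 in WT and 8 and 2 with Rspo3, with median log2 changes of 0.79 and 0.75, against 0.28 and 0.24 over all genes. With Rspo2, 4 of these 13 rose and 2 fell, among them Gpt2 (-0.53), and the median was 0.05 against 0.17 over all genes. Of 12 polyamine genes, 6 rose and 1 fell with Rspo1, 4 rose and 2 fell with Rspo2 and 5 rose and 0 fell with Rspo3, with medians of 0.25, 0.20 and 0.24. Over all genes 53.4%, 33.4% and 51.4% were called, most of them higher, so the polyamine counts are near the background. Of 7 cationic amino acid transporters, 4 fell with each ligand in WT, including Slc7a9 (-1.60 with Rspo1), Slc3a1 (-1.74) and Slc7a7 (-1.59), whereas Slc7a1, the main arginine carrier of many proliferating cells, rose with Rspo1 (1.44) and Rspo3 (1.97). Arg1, the arginase of liver, is among 8 other genes using arginine, of which 5 rose and 2 fell with Rspo1 in WT. Of 7 carriers and helpers, 2 rose and 3 fell with Rspo1. In KO the 13 genes of glutamine, glutamate and proline had 6 rises and 2 falls with Rspo1 and 7 and 2 with Rspo3, whereas with Rspo2 no gene of the 5 lists was called (limma, 3 at an unadjusted p under 0.05). Over all genes in KO, 29.8% were called with Rspo1, 44.5% with Rspo3 and 0.115% with Rspo2.

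The genes most alike in pattern were sought by Pearson correlation of log2(CPM + 1) over libraries for members whose group means differed over 4-fold. In sorted cells (15 libraries, 13103 genes) Ass1 was most like Pard3b (r = 0.954, Spearman rho = 0.939), Cps1 like Prlr (0.958 and 0.864), Oat like Dpp4 (0.997 and 0.971) and Arg2 like Gm26542 (0.940 and 0.771). Oat was also close to Prss12 (0.984) and Slc16a10 (0.978). In organoids (30 libraries, 12339 genes) Arg2 was most like AC154585.1 (0.998 and 0.991), which by its gene identifier is Gm48780, the antisense gene that shares exon bases with Arg2. Reads in the shared 116 bp, 8.1% of the Arg2 exon length, cannot be assigned with certainty, and their part in this likeness was not tested. Next came Ces1f (0.981 and 0.973) and Aldh1a1 (0.979 and 0.962). These points share stage, dose, culture and depth, and the values are descriptions.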

How the data were processed

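The members and the lists of pathway and marker genes were chosen with earlier results of these data known. Per the labels and the methods of the study, libraries were made with the Ovation SoLo kit (sorted cells) or after rRNA depletion (organoids), and the submitters' processing notes name Trimmomatic 0.36, STAR 2.5.3a, HTSeq 0.9.1 and GRCm38. The authors deposited CPM values, with each gene count divided by its library total and raised to a multiple of 0.05, in 1 table for sorted cells and 1 for organoids. Depth was recovered from the steps between low CPM values, and edgeR 4.0.16 was run on whole reads recovered for the 4 E16.5 pools.

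Values were taken as log2(CPM + 1), where the added 1 shrinks the fold change of genes near 1 CPM. Genes at or above 1 CPM in 2 or more libraries were tested with limma 3.58.1 in R 4.3.3 (trend on the mean, two-sided, Benjamini-Hochberg over all genes tested), with the groups compared for sorted cells and 1 fit of 30 libraries for organoids. The limits for sorted cells (FDR of 0.1, fold change of 1.5) and for variation among organoid groups (FDR of 0.001, 16-fold) follow the study, and the FDR of 0.05 for organoid contrasts was set here. The p-values measure the spread between libraries of a group, and in the adult stage comparison 4 libraries came from 2 mice. For organoids the spread between embryos was pooled over 12 groups. Without the block, libraries of the same culture count as independent there. Every member is named in each comparison it was called in, and of the pathway lists the called genes with the largest changes. The fits were tested on simulated data with known changes.

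Libraries share a litter at E16.5, a mouse in the adult regions and a culture in the organoids by the labels, and deviations of such pairs correlated at -0.0324 for litters, 0.257 for mice and 0.155 to 0.827 for cultures. Exon lengths come from the GENCODE annotation of GRCm38, which held 99.56% of the gene identifiers. Promoters were listed for 6 of the 9 genes. Python 3.11.15 was used for the levels and figures. The alternatives were another pseudocount (0.1), a filter of a mean of at least 10 CPM or of any nonzero library, TMM scaling, 1 fit of all 15 sorted-cell libraries, blocks, and each library or culture left out. The fold changes and p-values of the study were not used.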

Additional observations from a re-analysis of the deposited data

Results flagged for a closer look

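The dose effect on Odc1, the enzyme that makes putrescine, differed between 2 ligands in WT organoids by a test of the difference itself. The log2 change from 5 to 100 ng/ml was -0.57 with Rspo2 and 0.12 with Rspo1, a difference of -0.69 (SE 0.15, limma, adjusted p = 0.0141). In cultures 10, 5 and 30 the change was -0.83, -0.32 and -0.57 with Rspo2 and 0.33, 0.01 and 0.02 with Rspo1. With TMM scaling, which lowered log2 changes with Rspo1 by 0.30 and with Rspo2 by 0.17, the difference was -0.56 (adjusted p = 0.0685). Without WT culture 10 the difference was -0.46 (adjusted p = 0.281), and without WT culture 30 it was -0.75 (adjusted p = 0.102).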

How the results depend on the processing

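Each of the 53 called results of single genes was recomputed under the alternatives, 550 values in all. The direction was kept in all 550, the call in 464, and it was lost in 86, of which 65 left out a library or culture. The calls of 22 results held throughout. Counts of the 9 genes moved by over 1.5 times as follows. In ileum against duodenum, 3 were called, 1 with every nonzero gene or with a mean of at least 10 CPM (which leaves out Nags), and 5 with 1 fit of all sorted cells or with the mouse as a block. The shares of all genes called by these alternatives were not counted. KO against WT organoids had 1 call and 0 with every nonzero gene. The ligands had 18 calls and 33 with the culture as a block, and the ligand by dose interaction had 1 call, 0 with TMM scaling and 7 with the culture as a block. The cause was not tested. With a library or culture left out, counts ran from 2 to 6 in adult against E18.5 (2 without either E18.5 embryo, which leaves 1 embryo), from 7 (without WT culture 30) to 15 for dose in WT, with 9 without WT culture 5, from 4 (without KO culture 7) to 8 for dose in KO, from 0 to 6 for KO against WT, from 10 (without WT culture 30) to 20 for the ligands, with 11 without WT culture 10, from 0 to 1 for genotype by dose, from 0 to 3 for ligand by dose, and from 0 (without WT culture 30) to 1 for variation among groups.

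Elsewhere the pairing changed the counts of the 9 genes little. With the block, 0 of the 9 were called for the litter at E16.5, and for the culture 16 tests in WT dose and 9 in KO dose. Over all genes the culture block raised the share called. In WT it was 64.1%, 47.5% and 61.8% for Rspo1, Rspo2 and Rspo3, against 53.4%, 33.4% and 51.4% without it. In KO it was 43.8%, 1.17% and 55.1%, against 29.8%, 0.115% and 44.5%. E18.5 and E16.5 (correlation of same-numbered deviations -0.0186), adult and E18.5 (0.019 to 0.0263) and cKO and HE (0.161 to 0.419) share only a number, and with it as a block 4, 4 and 0 genes were called against 4, 5 and 0. Over all genes, E16.5 KO against HE had 91 calls with limma and 369 of 12453 with edgeR, and cKO against HE 10, or 779 with the exchanged genotypes. Depth limits Arg2 most in the E16.5 pools.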

Other observations

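Pathway genes that are not among the 9 enzymes also differed by stage and region. From E16.5 to E18.5, 4 of 11 polyamine genes fell and 0 rose, led by Sat2 (-0.88) and Sms (-0.86), and 4 of 6 other users of arginine fell while Agmat, which splits agmatine into putrescine and urea, rose by 2.89 on the log2 scale. Of 13 genes of glutamine, glutamate and proline 2 rose and 3 fell, with Glul, the glutamine synthetase, lowest at -1.57. Of 6 transporters 1 rose (Slc3a1, 1.25), and of 6 carriers and helpers 1 rose (Slc25a15, 0.79) and 1 fell (Glud1, -0.87). The median over all genes was 0.23, and 49.6% of genes were called.

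In the adult ileum against the duodenum, Nos2, an arginine-using nitric oxide synthase, was higher by 4.69 on the log2 scale and Ddah1 by 1.76, the 2 calls among 7 other users of arginine. Aldh4a1 of proline breakdown (-2.13) and Slc7a2, a transporter of arginine (-1.84), were lower, each the only call of its list of 12 and 6 genes. Of 10 polyamine genes Smox was higher (1.05) and Azin2 lower (-2.07), and of 7 carriers and helpers Slc25a12 (-1.06) and Slc25a15 (-0.63) were lower. Of all genes 6.88% were called and 4.64% were called lower. Median log2 changes were -0.30 for other users of arginine, -0.08 for glutamine and proline and -0.44 for transport. They were -0.02 for polyamines and -0.14 for the carriers, against 0.03 over all genes. No gene of the 5 lists was called in E16.5 KO against HE (limma, 6 of 42 at an unadjusted p under 0.05) or in cKO against HE (2 of 45).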
